A study of Danio rerio with 18 samples.

Results

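The change in gene expression of control zebrafish embryos between 48 and 60 hours post fertilisation (hpf) was taken from 6 of the 18 Affymetrix zebrafish arrays of a study on cardiac troponin T2. The 3 arrays titled as wild-type AB embryos at 60 hpf were set against the 3 at 48 hpf, and no measured value entered that choice. Embryos of the AB wild-type strain were injected at the 1-cell stage with a control morpholino, a synthetic antisense oligonucleotide, and kept in E3 medium at 28 °C. The titles call these embryos wild type while the design text names the control morpholino, so they are called controls here. The other groups used for comparison were controls at 36 hpf and morphants at 48 and 60 hpf, embryos of the same strain that received a morpholino against troponin T2, a protein of the heart's contractile filaments, so that the heart stays silent. The treatment protocol gives 32 h where the titles and the design text give 36 h, and the titles' time was used. Every array held total RNA of whole embryos, purified with Trizol and columns and labelled with biotin. The titles speak of embryos of 3 groups, and the groups held equal numbers of embryos from each pair of parents. The p-values therefore measure the spread between these arrays, since separate clutches or injections are not stated. In RNA of a whole embryo, fewer cells of a type and less RNA per cell cannot be told apart.

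In the zebrafish this interval lies around hatching. The hatching gland releases its proteases, the lens fibres fill with crystallins, the first rods and cones begin to make opsins, and the neural tube turns from dividing progenitors to neurons. Neural crest cells settle as pigment cells and form the cartilage of the jaw, the liver, gut and pancreas start to differentiate, and red cells of the first wave circulate. The Notch pathway, in which Delta and Jagged ligands on one cell activate Notch receptors on its neighbour, holds neural progenitors back from becoming neurons.

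The arrays of both times differed in brightness before they were normalised. The median deposited log2 value was 3.86, 3.86 and 3.72 on the 48 hpf control arrays and 2.14, 1.19 and 2.45 on the 60 hpf control arrays. Every 48 hpf control array was thus brighter than every 60 hpf control array, and brightness and time cannot be told apart within the controls. Over all tested probe sets the values as deposited were lower at 60 hpf by a median log2 difference of -1.70, and quantile normalisation brought that median to -0.016. Pairwise correlations of the normalised arrays were at least 0.955 among the 48 hpf controls and at least 0.892 among the 60 hpf controls. Array 1 of the controls at 36 hpf stood apart, with a correlation as low as 0.83, and it entered the shared estimate of the spread and the comparison with the earlier interval. Where a fold is given below, it is a power of the difference between quantile-normalised log2 values, and none is given where a group mean lay under 0.62, the 25th percentile that was the lower limit for testing, since the size of such a difference is not fixed.

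**Figure D1:**
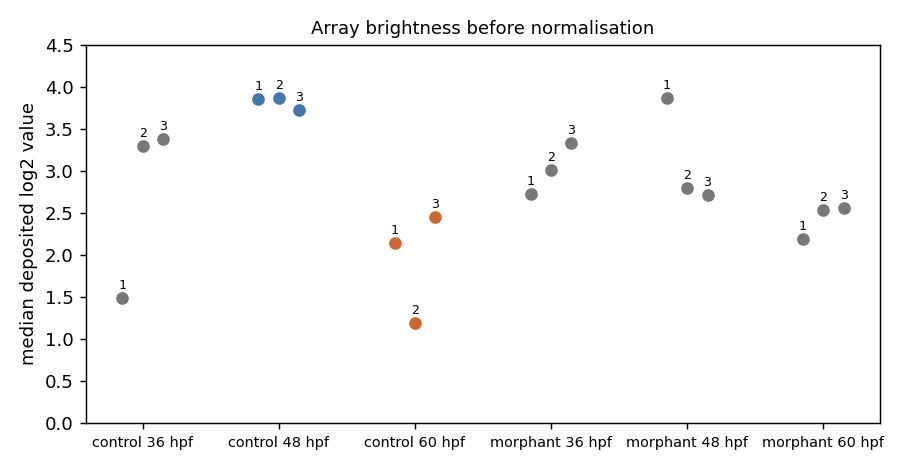
Median deposited log2 value (vertical axis) of each of the 18 arrays in 6 groups of 3, numbered by array. The 48 hpf control arrays lie at 3.72 to 3.86 and the 60 hpf control arrays at 1.19 to 2.45, with no overlap.

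Of 11626 tested probe sets, 3073 passed an adjusted p of 0.05 in limma, which is 26.4%. Of these, 1570 (13.5%) were higher and 1503 (12.9%) lower at 60 hpf. The median difference among those called was 1.06 for the higher and -1.18 for the lower, and 1779 differed by at least 1 on the log2 scale. The 3 arrays of one time lay wholly above or below those of the other for 5496 probe sets (47.3%), and for 2980 of the 3073 called. The split of the calls depended on the scaling. Higher calls made up 51.1% after quantile normalisation, 66.8% when each array was centred on its median (2048 higher, 1019 lower, with a median over all probe sets of 0.19), and 0.6% on the values as deposited (57 higher, 9438 lower). Relative to the median over all probe sets, the values as deposited gave 344 higher and 83 lower calls. Leaving out 1 of the 6 arrays gave 1861 to 3413 calls, with 1861 without 60 hpf array 1, 1881 without 60 hpf array 2, 1919 without 48 hpf array 1 and 1929 without 48 hpf array 2. When the median brightness of each of the 18 arrays was added to the model, a fit chosen after seeing the data, 812 probe sets were called (497 higher, 315 lower). Of those, 454 had been called in the same direction, and 93.5% of the 3073 had the same sign.

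Precision depended on the level. In the dimmest quartile of tested probe sets, with mean log2 values from 0.62 to 2.32, the median standard error of the difference was 0.59 and 21.8% were called. In the brightest quartile, from 4.70 to 10.44, it was 0.18 and 29.9% were called. The largest differences below therefore belong mostly to dim probe sets with wide errors, and the bright genes show smaller differences with narrow ones. Among 2789 genes with a name, each represented by its brightest probe set, 731 (26.2%) were called, 431 (15.5%) higher and 300 (10.8%) lower, and the median difference was 0.044. That share is the background for the gene groups that follow. For families of probe sets the background is the 26.4% of all tested probe sets.

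Crystallin and opsin genes were among those higher at 60 hpf. The gene cryaa, for the alpha A crystallin of the lens, read 1.12, -1.53 and -1.16 at 48 hpf and 3.9, 2.12 and 2.61 at 60 hpf. All 3 arrays at 60 hpf lay above the 3 at 48 hpf, by 3.4 (SE 0.84, adjusted p 0.00762). From 36 to 48 hpf cryaa had differed by -2.18 in controls without a call. The far brighter crybb1, a beta crystallin, read 8.51, 8.48 and 8.18 at 48 hpf and 9.4, 9.21 and 9.22 at 60 hpf, and its difference was 0.89 (SE 0.17, adjusted p 0.00191), 1.85-fold. Among 7 probe sets described as crystallins, 4 rose and none fell (57.1%), and the median difference was 0.70. A gamma crystallin B-like probe set rose by 1.0 and a beta crystallin A4-like one by 0.70. In morphants, the embryos without a beating heart, the median over the same 7 was 0.082, and with array brightness in the model none of the 7 was called. Calls numbered 2 higher and none lower without 60 hpf array 1.

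Of 8 photoreceptor genes tested, 2 rose and 1 fell (37.5%), and the median difference was 0.57. Among 10 probe sets described as phototransduction proteins, 2 were higher and none lower (20%), with a median of 0.39. Rod opsin, rho, read 0.58, 2.51 and 2.65 at 48 hpf and 5.5, 6.02 and 4.43 at 60 hpf. The groups did not overlap, and the difference was 3.4 (SE 0.67, adjusted p 0.00202), 10.6-fold. The ultraviolet cone opsin opn1sw1 read 1.89, 1.81 and 1.58 at 48 hpf and 5.43, 5.26 and 3.56 at 60 hpf, with the lowest 60 hpf value in array 3. It rose by 2.99 (SE 0.70, adjusted p 0.0056), 7.93-fold. The blue cone opsin opn1sw2 differed by 0.38 (adjusted p 0.396) with overlapping arrays, and the cone transducin gnat2 by 0.18 (adjusted p 0.869). The photoreceptor transcription factor crx lay higher on every 60 hpf array, yet its difference of 0.75 had a standard error of 0.75 (adjusted p 0.474). The calcium sensor guca1b, which regulates guanylate cyclase in photoreceptors, fell by 0.99 (adjusted p 0.00603). An RPE65-like probe set, named for the visual cycle enzyme of the pigment epithelium and singled out after its values were seen, read -0.81, -1.52 and 0.79 at 48 hpf and 4.12, 4.67 and 2.69 at 60 hpf. Its 60 hpf arrays all lay higher, by 4.34 (SE 0.95, adjusted p 0.0037). From 36 to 48 hpf that probe set had differed by -1.54 in controls without a call. Of 21 transcription factors of the retina and eye field, six3a rose by 1.01 (adjusted p 0.00337) and rx1 fell by 1.28 (adjusted p 0.0163), a share of 9.52%. The call of rx1 was lost without 48 hpf array 1 or 60 hpf array 1 (adjusted p 0.0567 to 0.0578).

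**Figure D2:**
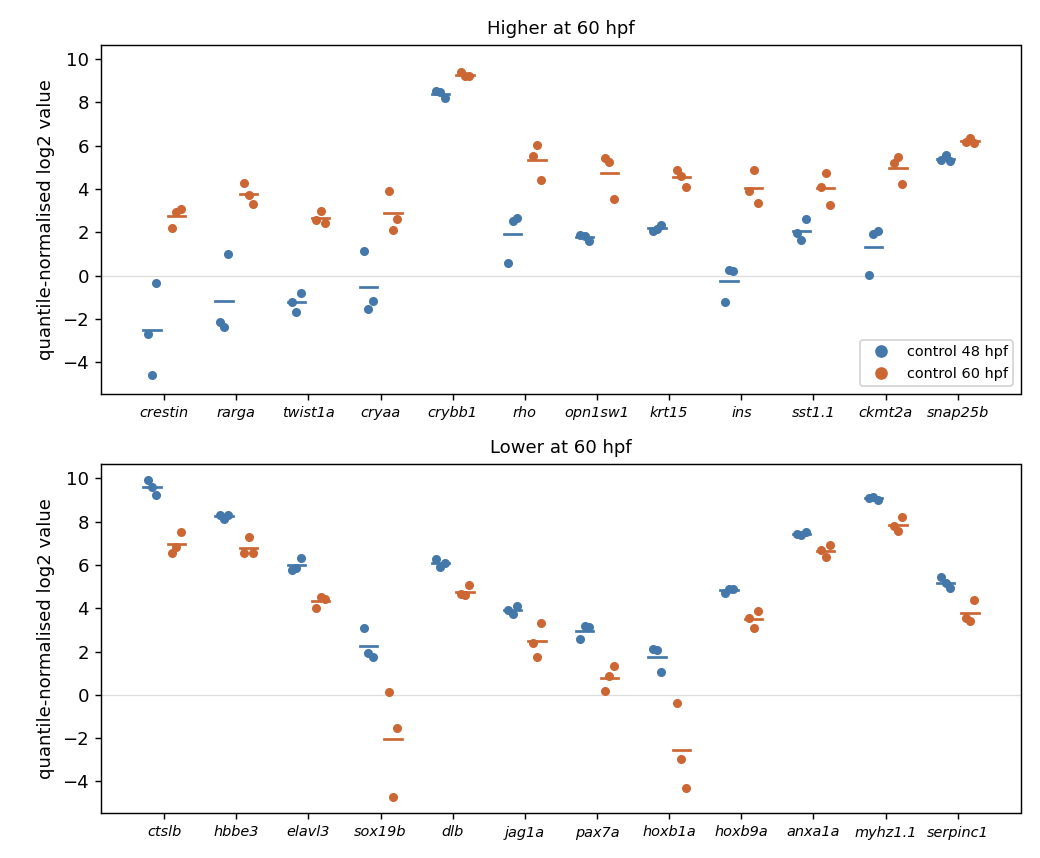
Quantile-normalised log2 value (vertical axis) of 24 named genes on each control array, 3 at 48 hpf and 3 at 60 hpf, with a bar at each group mean. In each of the 12 genes shown as higher and the 12 shown as lower, the points of the 2 times do not overlap, and the dim genes such as crestin, sox19b and hoxb1a scatter most. The genes were picked from those called, some by a rule that the arrays lie apart, so the separation follows largely from that choice. Groups do not overlap for 47.3% of all tested probe sets and for 2980 of the 3073 called.

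Hatching gland and skin gave a mixed picture. The brightest probe set of ctslb, which encodes the cathepsin L of the hatching gland, read 9.93, 9.61 and 9.24 at 48 hpf and 6.53, 6.85 and 7.51 at 60 hpf. All 60 hpf arrays were lower, and the difference of -2.63 (SE 0.27, adjusted p 2.57e-05) is 6.2-fold. It was the sole called gene among 3 hatching gland genes tested. Another 7 tested probe sets carry the name ctslb, and 1 of them was called lower and 1 higher.

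Of 20 genes of epidermis and keratins, 9 fell, 1 rose and the median difference was -0.31, a share of 50% called. The basal keratin gene krt15 read 2.06, 2.15 and 2.35 at 48 hpf and 4.9, 4.62 and 4.11 at 60 hpf, and the difference was 2.36 (SE 0.43, adjusted p 0.00124), 5.13-fold. The membrane-bound annexin anxa1a read 7.43, 7.39 and 7.52 at 48 hpf and 6.68, 6.37 and 6.9 at 60 hpf. It fell by 0.80 (SE 0.19, adjusted p 0.00628), 1.74-fold, with no overlap. Its relative anxa1b fell by 0.95 (adjusted p 0.0145). The tight junction claudin gene cldnb fell by 0.70 (adjusted p 0.00908) and cldni fell by 0.66 (adjusted p 0.0123), each on its brightest probe set. Of 3 probe sets named cldnb, 2 were called lower and 1 higher, with differences from -0.96 to 0.33. The other probe set of cldni differed by -0.025 without a call. The bright skin keratin krt4 read 10.18, 10.23 and 10.13 at 48 hpf and 9.92, 9.93 and 10.05 at 60 hpf, a difference of -0.21 (adjusted p 0.0259), whereas the difference of krt5 was -0.33 (adjusted p 0.106). Without 60 hpf array 2 the list had 1 higher and 1 lower gene, and with each array centred on its median 1 was higher, none was lower and the median was 0.28. Centring ended the calls of anxa1a (-0.20, adjusted p 0.383), anxa1b (-0.46, adjusted p 0.112), cldnb (0.061, adjusted p 0.885), cldni (-0.053, adjusted p 0.84) and krt4 (0.62, adjusted p 0.252). With 1 array left out the call of anxa1a held in each of the 6 fits, with an adjusted p of at most 0.0386. Calls were lost for anxa1b without 60 hpf array 2 (adjusted p 0.0965), cldnb without 60 hpf array 2 (adjusted p 0.0551), cldni without 60 hpf array 2 (adjusted p 0.0759) and krt4 without 48 hpf array 1 or 2 or 60 hpf array 1 or 2 (adjusted p 0.0689 to 0.101).

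A probe set without a gene name, described as similar to keratin 19 and singled out after its values were seen, read -2.55, -2.59 and -2.95 at 48 hpf and 4.55, 5.07 and 3.6 at 60 hpf. Its 48 hpf mean lay under 0.62, so the size of the difference of 7.1 (SE 0.50, adjusted p 3.43e-07) is not fixed. Another cytokeratin probe set with the same cluster number in its identifier differed by 0.68 without a call. Among 26 probe sets described as cytokeratins, 7 were higher and 4 lower (42.3%), with a median of 0.21. With array brightness in the model 1 of them was higher and none lower, and there were 6 higher and 1 lower without 48 hpf array 1 and 5 higher and 1 lower without 60 hpf array 2.

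In the developing nervous system, progenitor genes were called in both directions. Of 56 neural progenitor and neurogenesis genes, 13 fell and 8 rose, 37.5% in all, and the median difference was -0.17. With each array centred on its median 10 were higher and 5 lower with a median of 0.16, so the balance of the list turned with the scaling. There were 4 higher and 8 lower without 48 hpf array 1 and 2 higher and 10 lower without 60 hpf array 2. The SoxB1 factor gene sox19b read 3.09, 1.93 and 1.75 at 48 hpf and 0.15, -4.72 and -1.53 at 60 hpf. Array 2 at 60 hpf was the lowest, and the difference of -4.29 (SE 0.99, adjusted p 0.00506) carries a wide error. The paired box gene pax7a, of the dorsal neural tube and crest, read 2.58, 3.16 and 3.13 at 48 hpf and 0.17, 0.85 and 1.32 at 60 hpf and fell by 2.17 (SE 0.40, adjusted p 0.00142), 4.51-fold.

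Ligand and receptor genes of the Notch pathway were called in both directions. They were grouped after the results had been seen. Of 9 tested Delta, Jagged and Notch genes of the list above, each by its brightest probe set, 4 fell and 1 rose. The ligand gene dlb read 6.28, 5.89 and 6.07 at 48 hpf and 4.65, 4.6 and 5.06 at 60 hpf. No array overlapped, and the difference was -1.31 (SE 0.24, adjusted p 0.0012), 2.48-fold. The ligand gene jag1a read 3.92, 3.73 and 4.12 at 48 hpf and 2.41, 1.77 and 3.3 at 60 hpf and fell by 1.43 (SE 0.35, adjusted p 0.00672). A second Delta ligand, dla, and the receptor gene notch1a were singled out after their values were seen. They differed by -0.64 (adjusted p 0.0223) and -1.24 (adjusted p 0.00357). The receptor gene notch2 rose by 0.51 (adjusted p 0.0445) on the brighter of its 2 probe sets, and the other differed by 0.070. No call was made for the ligand genes dlc (-0.44, adjusted p 0.241), jag1b (-0.60, adjusted p 0.0537) and jag2b (-0.42, adjusted p 0.079) or for the receptor gene notch3 (-0.49, adjusted p 0.107). A her4 probe set without a gene name of its own, for a target repressor of Notch, differed by -1.79 (SE 0.24, adjusted p 0.000166). Of 6 probe sets named her4.1, 4 were called lower, while the brightest read 8.21, 8.19 and 8.15 at 48 hpf and 7.27, 7.29 and 7.79 at 60 hpf and did not pass (-0.73, adjusted p 0.0639). The call of dla was lost without 48 hpf array 1 or 3 or 60 hpf array 1 or 2 (adjusted p 0.0513 to 0.0922). That of notch2 was lost without any 1 of the 6 arrays (adjusted p 0.0592 to 0.13). With each array centred on its median no call was made for dla (-0.31, adjusted p 0.206) and notch1a (-0.91, adjusted p 0.0642). The SoxB2 factor gene sox21a rose by 2.38 (adjusted p 0.0187). That call was lost without 48 hpf array 2 or 60 hpf array 1 or 2 (adjusted p 0.0602 to 0.106).

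Of 26 genes of neurons and synapses 5 rose and 2 fell, near the background at 26.9%, with a median of -0.038. The RNA-binding protein gene elavl3, an early mark of newborn neurons, read 5.78, 5.88 and 6.33 at 48 hpf and 4.0, 4.52 and 4.41 at 60 hpf. Both of its probe sets were lower, and the brighter one fell by 1.69 (SE 0.34, adjusted p 0.00242), 3.22-fold. Its relative elavl4 lay at 6.26, 6.63 and 6.58 at 48 hpf and 5.59, 5.97 and 6.21 at 60 hpf and did not pass (-0.57, adjusted p 0.269). The synaptic fusion protein gene snap25b went the other way and read 5.35, 5.55 and 5.27 at 48 hpf and 6.18, 6.33 and 6.14 at 60 hpf. It rose by 0.82 (SE 0.17, adjusted p 0.00257), 1.77-fold. The complexin gene cplx2b, whose protein clamps vesicle fusion, fell by 2.04 (adjusted p 0.00829), and the adhesion molecule gene cntn1a rose by 1.78 (adjusted p 0.015). The latter call was lost without 48 hpf array 1 or 60 hpf array 2 (adjusted p 0.0688 to 0.0793). Among 20 probe sets for synaptic vesicle and membrane proteins, 4 were higher and 1 lower, with a median of 0.14. That share of 25% stands beside 26.4% of all tested probe sets. Those higher included a synapsin II-like probe set (2.35, adjusted p 0.00289), a synaptobrevin 2-like one (0.81, adjusted p 0.00515) and a synaptophysin-like one (0.67, adjusted p 0.00923). Another probe set of the family that shares the cluster number of the synaptophysin-like one differed by 0.033 without a call.

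Of 11 genes of glia and myelin none rose and 2 fell (18.2%). These were the myelin protein gene mpz (-2.35, adjusted p 0.0121) and egr2a (-1.45, adjusted p 0.018), a zinc finger factor of the hindbrain and of Schwann cells. The fit gave no call for mpz without 48 hpf array 2 (adjusted p 0.0527) and egr2a without 48 hpf array 1 or 60 hpf array 3 (adjusted p 0.0711 to 0.0748). Among 10 probe sets named plp1a, the myelin proteolipid gene, 4 dim ones were called lower, and the brightest read 9.47, 9.4 and 9.43 at 48 hpf and 9.63, 9.58 and 9.6 at 60 hpf with a difference of 0.17 (adjusted p 0.0757).

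Of 39 hox genes, which set position along the body axis, 6 rose and 3 fell (23.1%), and the median difference was -0.0058. The rhombomere 4 gene hoxb1a read 2.14, 2.06 and 1.05 at 48 hpf and -0.40, -2.94 and -4.31 at 60 hpf. It went from a low level to the dimmest range of the array, and fell by 4.3 (SE 0.74, adjusted p 0.000904). The trunk gene hoxb9a was lower on both of its probe sets, and the brighter one read 4.68, 4.89 and 4.89 at 48 hpf and 3.56, 3.08 and 3.87 at 60 hpf, a difference of -1.32 (SE 0.31, adjusted p 0.00623). In contrast hoxa13b rose by 1.96, hoxa11a by 1.95 and hoxd9a by 1.47 (adjusted p 0.0141). The gene hoxd9a did not pass without 60 hpf array 1 (adjusted p 0.0517). The calls of hoxa13b and hoxa11a were not followed through the other settings. The hox cofactor gene pbx1a read 3.88, 3.79 and 3.68 at 48 hpf and 2.08, -1.71 and 2.23 at 60 hpf, with 60 hpf array 2 far below the others, and fell by 2.92 (adjusted p 0.0317). Its second probe set differed by 0.065. Its call was lost without 48 hpf array 1, 2 or 3 or 60 hpf array 2 (adjusted p 0.0653 to 0.198).

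Genes of the neural crest and its derivatives were called in both directions. The transcript crestin, a mark of zebrafish neural crest cells, read -2.69, -4.57 and -0.34 at 48 hpf and 2.21, 2.94 and 3.05 at 60 hpf. All 3 arrays at 48 hpf were in the dimmest range and scattered widely, with a mean under 0.62, so the size of the difference of 5.27 (SE 0.95, adjusted p 0.00118) is not fixed. The transcription factor gene twist1a, active in cranial crest and mesoderm, read -1.2, -1.7 and -0.81 at 48 hpf and 2.58, 2.99 and 2.44 at 60 hpf and rose by 3.9 (SE 0.77, adjusted p 0.00201). Both transcripts had been lower at 48 than at 36 hpf in controls, by a mean log2 difference of -4.92 for crestin and -2.23 for twist1a. Among 8 pigment cell genes none rose and 2 fell (25%). These were the endothelin receptor gene ednrba (-1.62, adjusted p 0.0155) and gch2 (-0.99, adjusted p 0.0155), whose enzyme acts in the synthesis of pteridine pigments. The melanin enzyme gene dct differed by -0.19 (adjusted p 0.495). Calls were lost for ednrba without 48 hpf array 1 or 60 hpf array 3 (adjusted p 0.0554 to 0.0717) and gch2 without 48 hpf array 3 or 60 hpf array 2 (adjusted p 0.0665 to 0.0823), and median centring ended that of gch2 (-0.49, adjusted p 0.092).

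Of 23 genes of cartilage and matrix 3 rose and 2 fell (21.7%), and the median was 0.11. The collagen gene col1a2 read 8.04, 8.28 and 8.04 at 48 hpf and 8.56, 8.67 and 8.66 at 60 hpf. It rose by 0.51 (SE 0.13, adjusted p 0.00742), 1.43-fold, without overlap. The cartilage collagen gene col9a2 rose by 0.45 (adjusted p 0.0435), while its partner col2a1a lay higher on each 60 hpf array and did not pass (0.43, adjusted p 0.206). The laminin chain gene lama5 rose by 0.69 (adjusted p 0.0117), and the cartilage regulator sox9b fell by 0.60 (adjusted p 0.01). A cartilage matrix protein-like probe set, singled out after its values were seen, read 1.18, 2.52 and 2.2 at 48 hpf and 6.91, 6.99 and 6.0 at 60 hpf and differed by 4.67 (SE 0.67, adjusted p 0.000261). Among 22 probe sets described as collagens 3 were higher and 2 lower (22.7%), with a median of -0.145. The 2 lower ones, for type IV collagen of the basement membrane network, differed by -0.93 (adjusted p 0.0225) and -2.67 (adjusted p 0.00515). They share 1 cluster number in their identifiers. The dim probe set of the fibronectin gene fn1a fell by 2.69 (adjusted p 0.0474), whereas its brighter one differed by 0.13. For the list there were 2 higher and 1 lower without 48 hpf array 1 or 2 or 60 hpf array 1, 1 higher and 2 lower without 48 hpf array 3 and 1 higher and 1 lower without 60 hpf array 2. Calls were lost for col9a2 without 48 hpf array 1, 2 or 3 or 60 hpf array 1, 2 or 3 (adjusted p 0.059 to 0.133), lama5 without 48 hpf array 3 or 60 hpf array 2 (adjusted p 0.06 to 0.0635) and fn1a without 48 hpf array 1, 2 or 3 or 60 hpf array 1 (adjusted p 0.0987 to 0.278). Median centring also ended that of sox9b (-0.099, adjusted p 0.792).

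Skeletal muscle genes were called in both directions. Of 25 genes 7 fell and 3 rose (40%), with a median of -0.059, and with each array centred on its median 4 were higher and 1 lower. The myosin heavy chain gene myhz1.1 read 9.11, 9.14 and 9.01 at 48 hpf and 7.79, 7.57 and 8.23 at 60 hpf. It fell by 1.23 (SE 0.29, adjusted p 0.00618), 2.34-fold, and median centring ended the call of myhz1.1 (-0.49, adjusted p 0.0738). The giant sarcomere protein gene ttn.2 fell by 1.81 (adjusted p 0.0106). The creatine kinase gene ckma read 9.83, 9.81 and 9.74 at 48 hpf and 9.63, 9.65 and 9.68 at 60 hpf, the myosin light chain gene mylpfa differed by 0.058 (adjusted p 0.553) and the parvalbumin gene pvalb2 by 0.11 (adjusted p 0.484). The sarcomeric mitochondrial creatine kinase gene ckmt2a, by contrast, read 0.027, 1.94 and 2.06 at 48 hpf and 5.2, 5.5 and 4.23 at 60 hpf and rose by 3.63 (SE 0.60, adjusted p 0.000668), 12.4-fold. In a separate list of 7 myogenic regulators 2 rose and 1 fell (42.9%), with a median of -0.34. Among these the muscle transcription factor gene mef2aa rose by 2.41 (adjusted p 0.0127). No call was made for ttn.2 without 48 hpf array 1 (adjusted p 0.0504) and mef2aa without 48 hpf array 1 (adjusted p 0.0597). Calls among the 25 skeletal muscle genes came to 2 higher and 3 lower without 48 hpf array 1 or 60 hpf array 2. They came to 2 higher and 4 lower without 48 hpf array 2 or 60 hpf array 1.

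Among 9 heart genes 1 rose and 1 fell (22.2%). The cardiac transcription factor gene gata5 read 1.27, 2.09 and 0.65 at 48 hpf and 3.72, 3.42 and 3.5 at 60 hpf and rose by 2.2 (SE 0.44, adjusted p 0.00232). The cardiac myosin light chain gene myl7 fell by 0.53 (adjusted p 0.0183), and tnnt2a, the gene targeted in the morphants, lay at 3.25, 3.03 and 3.43 at 48 hpf and 2.37, 2.27 and 2.94 at 60 hpf and did not pass (-0.71, adjusted p 0.276). The call of myl7 was lost without 48 hpf array 3 or 60 hpf array 2 (adjusted p 0.0664 to 0.0953). Of 16 endothelial genes 4 rose and 2 fell (37.5%), with a median of 0.41. The arterial repressor gene hey2 rose by 2.13 (adjusted p 0.00962) and the lymphatic and venous receptor gene flt4 fell by 0.80 (adjusted p 0.0322). The call of flt4 was lost without 48 hpf array 1, 2 or 3 or 60 hpf array 1 (adjusted p 0.0614 to 0.125). Centring on the array median ended the calls of myl7 (-0.17, adjusted p 0.398) and flt4 (-0.67, adjusted p 0.0801). For the endothelial list there were 2 higher and none lower without 48 hpf array 1, 2 or 3 or 60 hpf array 1.

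Globin genes of the red cells were called in both directions. Of 17 erythroid genes 4 fell and 1 rose (29.4%), with a median of -0.22. The embryonic beta globin gene hbbe3 read 8.31, 8.1 and 8.32 at 48 hpf and 6.57, 7.3 and 6.53 at 60 hpf. The groups stood far apart and it fell by 1.45 (SE 0.15, adjusted p 2.57e-05), 2.73-fold. The related hbbe1.1 fell by 1.06 (adjusted p 0.00303), whereas hbbe2 read 7.92, 7.64 and 7.93 at 48 hpf and 8.41, 8.59 and 8.41 at 60 hpf and rose by 0.64 (SE 0.14, adjusted p 0.00307), 1.56-fold. These globin genes are related, and probes may read more than 1 of them, which was not checked. Among 7 probe sets described as globins, hbbe1.1 not among them, 1 was higher, 1 lower and 5 were not called. That share of 28.6% stands beside 26.4% of all tested probe sets, and the median was 0. The anion exchanger of the red cell membrane, slc4a1a, fell by 0.46 (adjusted p 0.0169), and the carbonic anhydrase gene cahz did not pass (-0.31, adjusted p 0.231). With median centring no call was made for hbbe3 (-0.85, adjusted p 0.0973) and slc4a1a (0.099, adjusted p 0.798). The call of slc4a1a was also lost without 48 hpf array 1 or 3 (adjusted p 0.0525 to 0.0854). Erythroid calls came to 1 higher and 2 lower without 48 hpf array 3. Among myeloid and inflammation genes the matrix protease gene mmp9 rose by 1.93 (adjusted p 0.00704) and nccrp1 fell by 1.16 (adjusted p 0.000368), among 14 genes of which 2 rose and 1 fell (21.4%). The macrophage and leukocyte genes lyz and lcp1 differed by -0.074 (adjusted p 0.683) and 0.60 (adjusted p 0.292).

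The pancreatic hormones insulin and somatostatin rose. Of 11 genes 3 rose and none fell (27.3%), with a median of 0.57. Insulin, ins, read -1.23, 0.28 and 0.22 at 48 hpf and 3.93, 4.86 and 3.33 at 60 hpf. Every 60 hpf array lay above every 48 hpf array. The 48 hpf mean lay under 0.62, so the size of the difference of 4.28 (SE 1.2, adjusted p 0.0146) is not fixed. From 36 to 48 hpf ins had differed by -1.97 in controls without a call, and its 36 hpf arrays scattered widely (SD 4.16). The call of ins was lost without 48 hpf array 1 or 60 hpf array 2 (adjusted p 0.0624 to 0.0627). Somatostatin, sst1.1, read 1.95, 1.66 and 2.63 at 48 hpf and 4.1, 4.74 and 3.27 at 60 hpf and rose by 1.96 (SE 0.46, adjusted p 0.00581), 3.88-fold. The granule protein gene chga rose by 1.4 (adjusted p 0.0227), a call lost without 48 hpf array 2 or 60 hpf array 2 (adjusted p 0.102 to 0.125), and glucagon, gcga, did not pass (1.01, adjusted p 0.244). With array brightness in the model no call was made for ins (1.21, adjusted p 0.653), sst1.1 (0.42, adjusted p 0.636) or chga (1.69, adjusted p 0.107). For the list there was 1 higher and none lower without 60 hpf array 2. None of the 3 exocrine pancreas genes tested was called, and 6 of 7 digestive enzyme probe sets lay lower without a call. Prolactin, prl, of the pituitary, read 1.9, 2.23 and 1.59 at 48 hpf and 0.91, -3.89 and 0.84 at 60 hpf and fell by 2.62 (adjusted p 0.0282). The call of prl was lost without 48 hpf array 1 or 2 or 60 hpf array 2 (adjusted p 0.0703 to 0.087).

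In the gut and liver the calls went both ways. Of 14 intestinal genes 4 rose and 3 fell (50%), with a median of 0.39. The gut claudin gene cldn15la read 2.3, 1.52 and 1.96 at 48 hpf and 3.82, 3.8 and 3.23 at 60 hpf and rose by 1.69 (SE 0.40, adjusted p 0.00562), 3.23-fold. The endoderm factors foxa1 and foxa3 rose by 1.91 (adjusted p 0.00603) and 1.23 (adjusted p 0.00477). The intestinal fatty acid binding protein gene fabp2 read 7.08, 6.9 and 6.95 at 48 hpf and 6.29, 6.3 and 6.64 at 60 hpf. It fell by 0.57 (SE 0.14, adjusted p 0.00622), and the chitinase gene chia.3 fell by 1.18 (adjusted p 0.0435). An intestinal alkaline phosphatase-like probe set without a gene name, singled out after its values were seen, read -2.37, -1.81 and -0.32 at 48 hpf and 3.37, 3.27 and 2.88 at 60 hpf and differed by 4.67 (SE 0.94, adjusted p 0.00231). From 36 to 48 hpf the alkaline phosphatase-like probe set had differed by -2.65 in controls without a call. The call of chia.3 was lost without 48 hpf array 1, 2 or 3 or 60 hpf array 1, 2 or 3 (adjusted p 0.0635 to 0.118). Calls ended by median centring were those of fabp2 (-0.019, adjusted p 0.95) and chia.3 (-1.19, adjusted p 0.0509).

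Of 25 liver and plasma protein genes 4 rose and 3 fell (28%), with a median of 0.04. The antithrombin gene serpinc1 read 5.43, 5.16 and 4.91 at 48 hpf and 3.56, 3.41 and 4.36 at 60 hpf and fell by 1.39 (SE 0.34, adjusted p 0.00647). Plasminogen, plg, rose by 1.08 (adjusted p 0.00746), the hepatoblast factor prox1a by 1.1 (adjusted p 0.00797) and the xenobiotic enzyme gene cyp1a by 2.13 (adjusted p 0.000304). The liver fatty acid binding protein gene fabp10a, fibrinogen fgg and transferrin tfa did not pass, at 0.79 (adjusted p 0.45), 0.16 (adjusted p 0.557) and -0.42 (adjusted p 0.102).

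Of 21 genes of the mitochondrial respiratory chain 8 rose and 1 fell (42.9%), with a median of 0.32. Among 56 probe sets described as parts of the mitochondrial respiratory chain, 31 were higher and 1 lower (57.1%), 48 lay above 0 and the median difference was 0.44. Among 42 for mitochondrial ribosomal proteins, 18 were higher and none lower (42.9%), with a median of 0.58. These families were grouped by their deposited descriptions after the results had been seen. The complex I gene ndufa6 read 6.05, 6.2 and 5.97 at 48 hpf and 7.29, 7.43 and 6.55 at 60 hpf. It rose by 1.02 (SE 0.25, adjusted p 0.00692), 2.02-fold. The complex III gene uqcrc2a rose by 0.83 (adjusted p 0.00804) and the citric acid cycle enzyme gene mdh2 by 0.68 (adjusted p 0.000875). A cytochrome c oxidase VIa probe set read 7.95, 7.96 and 8.05 at 48 hpf and 8.66, 8.85 and 8.28 at 60 hpf and differed by 0.61 (SE 0.14, adjusted p 0.00601). Among mitochondrial ribosomal proteins, an MRPS10-like probe set differed by 2.05 (adjusted p 0.000275) and an MRPL4-like one by 1.78 (adjusted p 0.00124), and malsu1, an assembly factor of that ribosome, read 1.24, 0.52 and 1.54 at 48 hpf and 4.94, 4.92 and 4.14 at 60 hpf and rose by 3.57 (SE 0.39, adjusted p 4.20e-05), 11.9-fold. From 36 to 48 hpf the MRPS10-like probe set had differed by -2.0, the MRPL4-like one by -1.2 and malsu1 by -3.09 in controls. For the respiratory chain there were 20 higher and none lower without 48 hpf array 2, 19 higher and none lower without 60 hpf array 1 and 16 higher and none lower without 60 hpf array 2. With array brightness in the model 1 was higher and none lower with a median of 0.12, and among mitochondrial ribosomal proteins 4 were higher with a median of 0.29. The part of array brightness in these counts was not tested further.

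Of 19 proteasome genes 8 rose and none fell (42.1%), with a median of 0.39. Among 28 probe sets described as proteasome subunits, 7 were higher and 1 lower (28.6%), with a median of 0.33. The regulatory subunit gene psmc6 read 6.55, 6.45 and 6.66 at 48 hpf and 7.08, 6.95 and 7.07 at 60 hpf, and rose by 0.48 (SE 0.12, adjusted p 0.00829). Its partner psmd13 rose by 0.59 (adjusted p 0.00907), a call lost without 60 hpf array 1 (adjusted p 0.0506). Proteasome calls came to 5 higher and none lower without 48 hpf array 1, 2 or 3 or 60 hpf array 2 and 3 higher and none lower without 60 hpf array 1. Of 24 heat shock and chaperone genes 7 rose and 1 fell (33.3%). There were 3 higher and 1 lower without 48 hpf array 1 or 2 or 60 hpf array 1 or 2. The mitochondrial chaperonin gene hspd1 read 5.44, 5.92 and 5.75 at 48 hpf and 7.03, 6.94 and 6.6 at 60 hpf and rose by 1.15 (SE 0.19, adjusted p 0.000796), and the heat shock regulator hsf1 rose by 2.06 (adjusted p 0.00741). The cytosolic chaperone gene hsp90aa1.1 did not pass (-0.38, adjusted p 0.27). In glycolysis 3 of 10 genes rose and 1 fell (40%). Those that rose included gpia (1.3, adjusted p 0.00295) and pgk1 (0.68, adjusted p 0.00582). For the list there were 2 higher and none lower without 48 hpf array 1 or 60 hpf array 1 or 2.

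**Figure D3:**
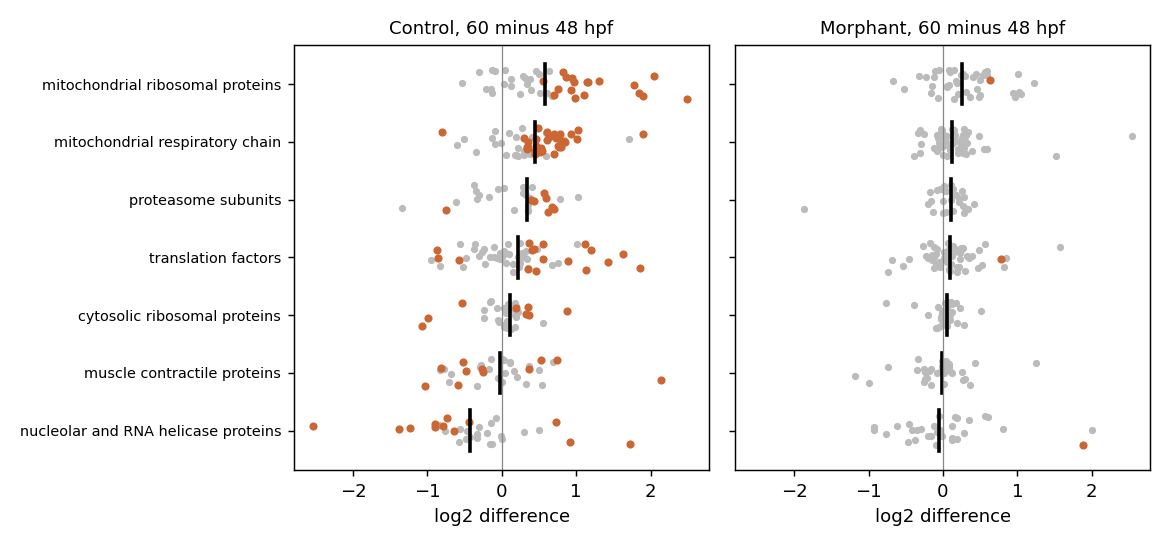
Log2 difference from 48 to 60 hpf (horizontal axis) of each probe set in 7 protein families, in controls (left) and morphants (right), with called probe sets in orange, others in grey and a bar at the median. The mitochondrial families have control medians of 0.58 and 0.44 and morphant medians of 0.26 and 0.12, and the nucleolar family has medians of -0.43 and -0.048.

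Cytosolic ribosomal proteins and nucleolar proteins were called in both directions. Of 19 cytosolic ribosomal protein genes 4 rose and 1 fell (26.3%), with a median of 0.085. The stalk protein gene rplp0 rose by 0.30 (adjusted p 0.00739) and rpl36a fell by 0.53 (adjusted p 0.00628). Neither was called with median centring, which gave rplp0 (1.1, adjusted p 0.0707) and rpl36a (0.12, adjusted p 0.809). The call of rplp0 was lost as well with the 9 control arrays alone (adjusted p 0.0503) and without the intensity trend (adjusted p 0.0727). For the list there were 2 higher and 1 lower without 48 hpf array 2 and 1 higher and 1 lower without 60 hpf array 1. Among 31 probe sets for nucleolar proteins and RNA helicases 9 were lower and 3 higher (38.7%), with a median of -0.43. There were none higher and 7 lower without 48 hpf array 1, 2 higher and 4 lower without 48 hpf array 2 and 1 higher and 6 lower without 48 hpf array 3. There were 1 higher and 4 lower without 60 hpf array 1 and none higher and 6 lower without 60 hpf array 2. A nucleolin-like probe set read 8.49, 8.71 and 8.61 at 48 hpf and 8.05, 7.79 and 8.05 at 60 hpf and differed by -0.64 (SE 0.21, adjusted p 0.0315). Another probe set of the family with the same cluster number in its identifier differed by -0.15 without a call. Outside this family nvl, a nuclear ATPase of ribosome assembly, read -2.31, -3.66 and -1.47 at 48 hpf and 3.43, 3.74 and 0.72 at 60 hpf and rose by 5.11 (SE 1.12, adjusted p 0.00381). From 36 to 48 hpf nvl had differed by -4.41 in controls.

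Of 46 genes of the cell cycle and DNA replication, which drive cell division, 4 rose and 3 fell (15.2%), and the median was 0.022. The sliding clamp gene pcna lay at 8.41, 8.17 and 8.17 at 48 hpf and 8.45, 8.42 and 8.16 at 60 hpf and the helicase gene mcm2 differed by 0.12 (adjusted p 0.664). The thymidine kinase gene tk1 fell by 1.16 (adjusted p 0.00217) on its brighter probe set, and the dimmer one differed by 0.073. The origin recognition gene orc5 rose by 2.88 (adjusted p 0.000144) and cyclin E1, ccne1, by 1.57 (adjusted p 0.0188), a call lost without 48 hpf array 2 or 60 hpf array 2 (adjusted p 0.0802 to 0.0878). From 36 to 48 hpf orc5 had differed by -3.5 and ccne1 by -2.13 in controls. For the list there were 3 higher and 1 lower without 48 hpf array 1 or 60 hpf array 1, 2 higher and 1 lower without 48 hpf array 2 or 60 hpf array 2 and 5 higher and 7 lower without 60 hpf array 3.

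The lists of stress, steroid and clock genes held few genes each. Their shares of calls ran from 7.69% for hypoxia and ATF4 stress to 35.7% for immediate early genes, on both sides of the 26.2% of all named genes. Of 15 clock and light-responsive genes 1 rose and 2 fell (20%). The cryptochrome gene cry4 read -0.053, 0.66 and 1.25 at 48 hpf and 3.89, 4.27 and 3.41 at 60 hpf. It rose by 3.24 (SE 0.49, adjusted p 0.000366), while both probe sets of cry2 were lower, and the brighter one fell by 1.61 (adjusted p 0.00188). The light-responsive genes per2 and tefa did not pass, at 1.34 (adjusted p 0.206) and -0.36 (adjusted p 0.382). Of 14 immediate early genes 2 rose, the transcription factor genes junba (2.14, adjusted p 0.00404) and mycb (1.34, adjusted p 0.00146), and 3 fell, atf3 among them (-0.85, adjusted p 0.0428), while egr1 did not pass (0.73, adjusted p 0.418). Of 13 genes of hypoxia and ATF4 stress 1 fell, and ddit4 and igfbp1a did not pass, at 0.48 (adjusted p 0.733) and -0.16 (adjusted p 0.674). Of 9 apoptosis and p53 genes 1 rose and 2 fell (33.3%). The survival genes mcl1a and bcl2l1 differed by 1.27 (adjusted p 0.00355) and -1.15 (adjusted p 0.0103). Of 3 probe sets named bcl2l1, 2 were called lower, and the differences ran from -1.15 to 0.48. None of the 5 named mcl1b was called. Among 12 genes of the steroid and glucocorticoid response 1 rose and 3 fell (33.3%). The glucocorticoid target fkbp5 read 5.86, 5.48 and 6.09 at 48 hpf and 4.18, 4.02 and 3.74 at 60 hpf and fell by 1.83 (SE 0.38, adjusted p 0.00269), 3.56-fold, and the receptor gene nr3c1 fell by 0.68 (adjusted p 0.0326). Of 5 sterol synthesis genes fdps fell (-1.19, adjusted p 0.00231), and hmgcs1, insig1 and msmo1 did not pass, at 0.70 (adjusted p 0.41), -0.27 (adjusted p 0.572) and 0.76 (adjusted p 0.317). Of 8 ionocyte genes 1 rose, the sodium pump gene atp1a1a.3 (1.11, adjusted p 0.0162). Calls were lost for atf3 without 48 hpf array 1, 2 or 3 or 60 hpf array 1 or 2 (adjusted p 0.0752 to 0.127), bcl2l1 without 60 hpf array 1 (adjusted p 0.0665), nr3c1 without 48 hpf array 1 or 2 or 60 hpf array 1 or 2 (adjusted p 0.0674 to 0.121) and atp1a1a.3 without 48 hpf array 3 or 60 hpf array 1 or 2 (adjusted p 0.0522 to 0.0622), and those ended by median centring were atf3 (-0.80, adjusted p 0.0529) and nr3c1 (-0.54, adjusted p 0.0807). For immediate early genes there were 2 higher and none lower without 48 hpf array 1 and 2 higher and 1 lower without 48 hpf array 3 or 60 hpf array 1 or 3. For hypoxia and ATF4 stress there were none higher and none lower without 48 hpf array 1, 2 or 3 or 60 hpf array 1 or 2 and 1 higher and 1 lower without 60 hpf array 3. For ionocytes there were none higher and none lower without 48 hpf array 3 or 60 hpf array 1 or 2 and 4 higher and none lower without 60 hpf array 3, and for sterol synthesis there were 1 higher and 1 lower without 60 hpf array 2.

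Other genes named for the size of their increase belonged to none of the gene lists. They were rarga, a retinoic acid receptor (4.94, adjusted p 7.61e-05), ggctb of glutathione turnover (4.79, adjusted p 6.94e-05), tcimb (4.71, adjusted p 0.00112), trpc4apb (4.28, adjusted p 0.000479), wbp2nl (4.26, adjusted p 2.57e-05), the receptor phosphatase gene ptpra (4.17, adjusted p 4.20e-05) and the semaphorin receptor gene plxnb2a.1 (3.74, adjusted p 0.000487). The arrays of ptpra read -0.54, -1.15 and -0.45 at 48 hpf and 3.5, 3.25 and 3.62 at 60 hpf, and those of wbp2nl read 0.22, 0.59 and 1.92 at 48 hpf and 5.31, 5.48 and 4.72 at 60 hpf, a rise of 19.2-fold. Both genes separated the 2 times by more than 2 log2 units. All the genes named in this group had been lower at 48 than at 36 hpf in controls. The mean log2 difference of that earlier step was -4.39 for rarga, -4.17 for ggctb, -5.34 for tcimb and -2.51 for trpc4apb. It was -3.35 for wbp2nl, -2.98 for ptpra and -3.63 for plxnb2a.1. The brighter probe set of rarga differed by 0.35 and that of plxnb2a.1 by 0.052, and other probe sets of trpc4apb differed by 0.089 to 1.55, so these increases belong to 1 probe set each.

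Further genes named for the size of their decrease were the dopamine receptor gene drd2b (-3.27, adjusted p 0.000628), wu:fc34e06 (-3.06, adjusted p 0.000312), hirip3, whose protein binds a histone chaperone (-2.68, adjusted p 0.000255), dnajc5gb of a chaperone family (-2.61, adjusted p 0.00317), casp8ap2 (-3.18, adjusted p 0.0205), si:ch211-107p11.3 (-2.88, adjusted p 0.033), zgc:153115 (-2.72, adjusted p 0.0358) and desi1b (-2.53, adjusted p 0.0479). The arrays of hirip3 read 3.94, 4.04 and 4.06 at 48 hpf and 1.38, 1.39 and 1.23 at 60 hpf. They were tight at both times, with a fall of 6.4-fold. The other probe set of wu:fc34e06 differed by -2.15 without a call. In casp8ap2, si:ch211-107p11.3, zgc:153115 and desi1b, 1 of the 60 hpf arrays lay below -3 and the other two above 0, so 1 array lies far from the rest of its group. Calls were lost for casp8ap2 without 48 hpf array 1 or 2 or 60 hpf array 1 (adjusted p 0.0576 to 0.0683), si:ch211-107p11.3 without 48 hpf array 1, 2 or 3 or 60 hpf array 1 (adjusted p 0.0719 to 0.141), zgc:153115 without 48 hpf array 1, 2 or 3 or 60 hpf array 2 (adjusted p 0.062 to 0.186) and desi1b without 48 hpf array 1, 2 or 3 or 60 hpf array 1 (adjusted p 0.0586 to 0.259).

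Probe sets with the same name did not always move alike. Of 355 genes with at least 2 tested probe sets, 52 had at least 2 called. In 25 genes every tested probe set was called in 1 direction, and in 14 genes calls went in opposite directions. For naca, 16 probe sets ran from -2.4 to 1.7, and for rrm1, 11 ran from -2.0 to 0.65. Names come from gene identifiers and symbols in the deposited descriptions, and a probe set may read another transcript than its name says.

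**Figure D4:**
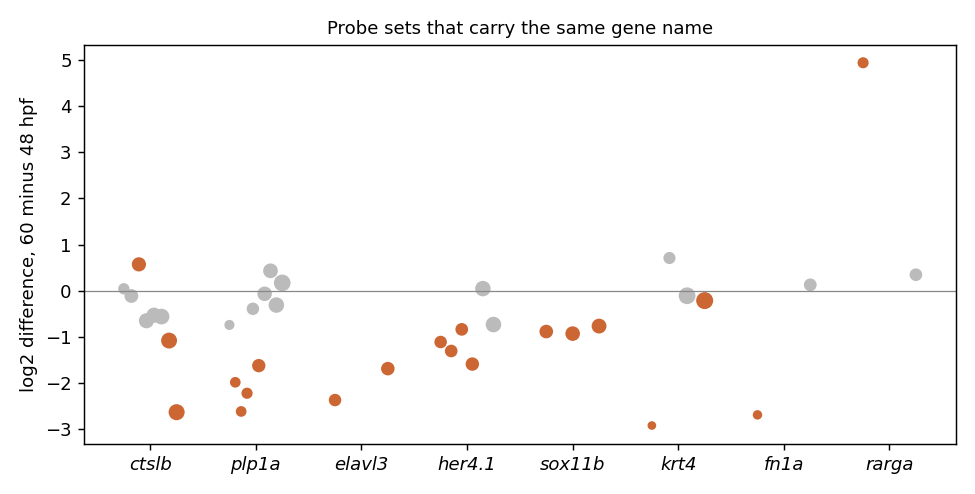
Log2 difference from 48 to 60 hpf (vertical axis) of every tested probe set that carries 1 of 8 gene names, ordered from dim to bright within a gene, with point size by mean level and called probe sets in orange. All probe sets of elavl3 and sox11b are called lower, while those of ctslb are called in both directions and the large difference of rarga belongs to its dimmer probe set.

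The same interval in morphants was measured on other arrays. There 111 probe sets (0.955%) were called, 68 higher (0.585%) and 43 lower (0.37%), although the median standard error of the difference was 0.28 in both kinds of embryo, as the model shares it. The median deposited log2 value of the morphant arrays was 3.86, 2.80 and 2.71 at 48 hpf and 2.19, 2.53 and 2.56 at 60 hpf. Brightness thus differed less between the times in morphants than in controls. Its part in the gap between the call counts was not tested. Of these 111, 83 were also called in controls in the same direction (52 higher, 31 lower) and none in the opposite one, which is 74.8% of the morphant calls and 2.7% of the control calls. Of the 3073 control calls 92.3% had the same sign in morphants, against 72.8% of all tested probe sets. The correlation of both steps over probe sets was 0.639, given as a description, since probe sets are not independent. Rod opsin differed by 3.06 in morphants and 3.4 in controls, ctslb by -2.99 and -2.63, and hsf1 by 2.48 and 2.06, and these were called in both. The gene opn1sw1 differed by -0.34 in morphants and 2.99 in controls, cryaa by 0.11 and 3.4, ins by 0.41 and 4.28, and ckmt2a by -0.028 and 3.63.

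**Figure D5:**
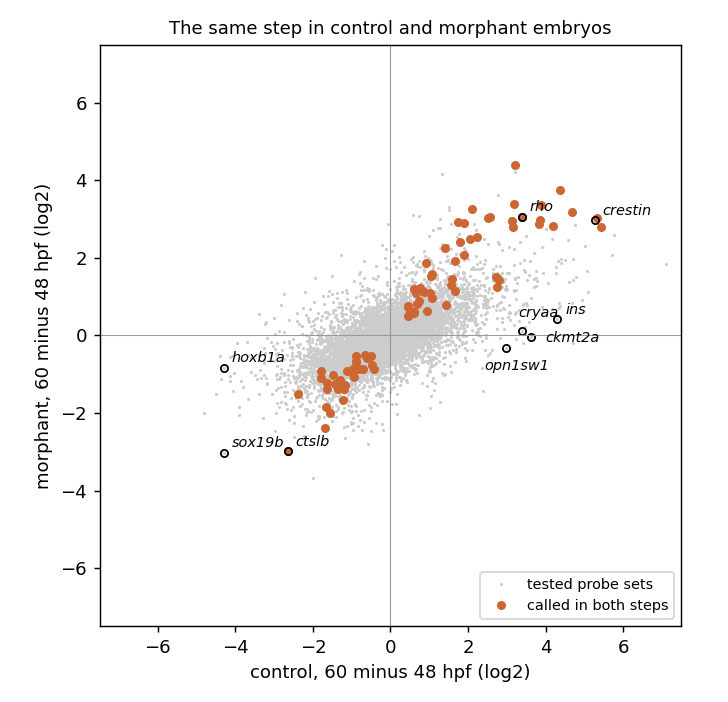
Log2 difference from 48 to 60 hpf in controls (horizontal axis) and morphants (vertical axis) for all tested probe sets (grey), with the 83 called in both in orange and named genes circled. The orange points lie in the lower left and upper right of the plot, and cryaa, ckmt2a, ins and opn1sw1 lie to the right near a morphant difference of 0.

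The difference between the control and the morphant step was tested itself. It passed for 1 probe set (0.0086%), the keratin 19-like one, and 1290 (11.1%) had an unadjusted p under 0.05 in limma, where the median standard error was 0.40. The call count was 0 to 4 in other settings that kept all arrays, 1 to 4 with 1 of the other control arrays at 48 and 60 hpf left out, 22 without 60 hpf array 3 (2 higher, 20 lower) and 1 without any single morphant array at 48 or 60 hpf. So the greater number of calls in controls does not show that a given gene differs between controls and morphants. Among named genes the smallest p-values of this test belonged to fabp2, hbbe3, ppp1r13ba, ptpra and rarga. None of these 5 passed after adjustment in limma. For fabp2 the control step was -0.57 and the morphant step 0.44, for hbbe3 -1.45 and -0.41, for ptpra 4.17 and 0.69, for rarga 4.94 and 0.91, and for ppp1r13ba 3.05 and 0.60.

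The step from 48 to 60 hpf was also set against the control step from 36 to 48 hpf, in which 2625 probe sets (22.6%) were called. The later step minus the earlier one passed for 2983 probe sets (25.7%), 1553 with a positive and 1430 with a negative value. Both steps share the 48 hpf arrays, on which a high value raises the earlier step and lowers the later one. Without 1 of the 9 control arrays the count was 1562 to 3684, with 1562 without 48 hpf array 2, 1648 without 48 hpf array 1, 1939 without 48 hpf array 3 and 2873 without 36 hpf array 1, and with array brightness in the model it was 738. The smallest p-values among named genes belonged to acadm, malsu1, noc4l, ppp1r13ba and wbp2nl. The gene acadm, for a mitochondrial fatty acid dehydrogenase, read 2.68, 2.26 and 3.62 at 48 hpf and 5.64, 5.44 and 5.66 at 60 hpf, a later step of 2.73 (SE 0.27, adjusted p 2.57e-05). The nucleolar gene noc4l read 1.25, 0.65 and 0.34 at 48 hpf and 3.65, 3.53 and 3.33 at 60 hpf and rose by 2.76 (SE 0.29, adjusted p 2.57e-05). All 5 were higher at 60 than at 48 hpf on every array, and each had been lower at 48 than at 36 hpf, by a mean log2 difference of -2.18 for acadm, -3.09 for malsu1, -2.97 for noc4l, -3.24 for ppp1r13ba and -3.35 for wbp2nl.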

How the data were processed

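RNA of whole embryos was measured on 18 arrays in 6 groups of 3, grouped and numbered by the sample titles. The deposited values are log2 expression values with deposited standard errors. Per the deposited readme and file names, the authors computed them with the mmgMOS model of the puma package, while neither the package version nor the logarithm's base is given in the sources used here. In all, 115 probe sets of the manufacturer's controls were dropped and 15502 quantile normalised with limma 3.58.1 in R 4.3.3. A mean level at or above the 25th percentile (0.62) was required, and 11626 passed. A mean per group was fitted to all 18 arrays, with 12 residual and 6.24 prior degrees of freedom and a trend of the variance with intensity. Benjamini-Hochberg adjustment ran over every tested probe set, and adjusted p under 0.05 was called. Precision is limited by the few arrays. With 3 arrays against 3, an exact two-sided permutation test of a single value could not go below 0.1, so none was used.

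Names came from deposited descriptions matched to a RefSeq gene table (GRCz12tu, used for names only). In this way 4116 probe sets received 1 name (35 of them by hand-written alias), 41 matched several names and 11345 stayed unnamed. The members, the 36 gene lists and the 22 families of descriptions were chosen with earlier results of these data known. Kinase genes that a prefix had put among the ribosomal proteins were removed. The rule for naming genes took up to 15 higher and 15 lower genes by size (1 probe set per gene, called, with arrays apart), up to 5 called members per list, up to 5 genes per test of steps, and set genes per list whatever their call. One gene that the rule took is not reported here. The alternatives were centring on the median, values as deposited, fewer groups, other filters, no trend, a replicate block, each of the 6 control arrays at 48 and 60 hpf left out, and, chosen after seeing the data, array brightness as a covariate and single 36 hpf control or morphant arrays left out of the tests between steps. A replicate number was not used for pairing.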

Additional observations from a re-analysis of the deposited data

Results flagged for a closer look

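The keratin 19-like probe set was singled out because its difference between 48 and 60 hpf was not the same in controls and morphants when that difference was itself tested. The control step exceeded the morphant step by 5.27 on the log2 scale (SE 0.71, adjusted p 0.00776 in limma). In controls the arrays read -2.55, -2.59 and -2.95 at 48 hpf and 4.55, 5.07 and 3.6 at 60 hpf, and the mean was 2.93 at 36 hpf. In morphants the mean was 1.49 at 48 hpf and 3.32 at 60 hpf. It was the sole tested probe set past the threshold. Another cytokeratin probe set with the same cluster number in its identifier differed by 0.68 in controls and -0.76 in morphants, with no call in either.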

How the results depend on the processing

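Against 3073 called probe sets, 164 called list members, 2983 probe sets in the comparison with the earlier step and 1 in the comparison with morphants, the values as deposited gave 9495, 52 (relative to the median over all probe sets), 8539 and 1. The fit to the 9 control arrays alone gave 1595, 85 and 1465, the covariate of array brightness, chosen after seeing the data, 812, 44, 738 and 4, and the 50th percentile filter 2217, 134, 2303 and 0. With 1 array left out the counts ran from 1861 to 3413, from 97 to 174, from 1562 to 3684 and from 1 to 22, the latter 2 ranges including fits without 1 of the 36 hpf control or the morphant arrays. With the replicate block they were 3392, 178, 3371 and 3. The samples share only a number: deviations of same-numbered control arrays at 48 and 60 hpf correlated at 0.039, 0.024 and 0.017, so the block has no basis in the design. The calls of 113 genes named in the text, hoxa13b and hoxa11a not among them, were followed through the settings. Of these, 112 were still called with the block, 93 with median centring, 104 without the intensity trend, 36 with the covariate and, of 110 tested there, 81 with the 9 control arrays alone. The values as deposited, taken relative to the median, kept the call and direction of 42 of the 113 genes. Median centring turned cldnb to 0.061, krt4 to 0.62, rpl36a to 0.12 and slc4a1a to 0.099, the values as deposited gave krt4 0.43 relative to the median, and the covariate turned pbx1a to 0.15. The cause of these changes was not tested. Differences of dim probe sets, with a median standard error of 0.59 in the dimmest quartile, are measured least well.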
